A study of Homo sapiens with 18 samples.

Results

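Respiratory complex I is the NADH:ubiquinone oxidoreductase of the mitochondrial inner membrane. The genes described here are its nuclear-encoded subunits and its NDUFAF assembly factors in IMR90 ER:RAS fibroblasts with and without an inhibitor of N-myristoyltransferase (NMT). They were taken by symbol, as rows whose name is NDUF followed by A, B, C, S, V, AB or AF and a number. The set itself was chosen with earlier results of these data known. The rule found 46 of the 28266 genes in the table. These were 37 complex I subunits, 8 assembly factors and NDUFA4, whose protein is now placed in complex IV and which is described apart. All 46 passed the filter on low counts, with 76 to 5910 counts per library.

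IMR90, a line of lung fibroblasts, was used throughout, and every culture carried ER:RAS, an oncogenic RAS fused to an oestrogen receptor domain. In the senescent groups 100 nM 4-hydroxytamoxifen (4OHT) switched ER:RAS on, which drives oncogene-induced senescence, and the control groups received DMSO in its place. After 7 days the cells received DMSO, IMP1088 at 300 nM, or DDD86481 at a dose of 1.5 µM, for 3 days, and poly(A) RNA was collected on day 10. The groups were control DMSO, control IMP1088, control DDD86481, senescent DMSO, senescent IMP1088 and senescent DDD86481, each with 3 replicates. IMP1088 and DDD86481 are both NMT inhibitors (NMTi), given at different doses, so their values stand side by side and were not compared with each other.

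Complex I passes electrons from NADH to ubiquinone and pumps protons across the inner membrane. Its matrix arm holds the N module, which oxidizes NADH, and the Q module, where ubiquinone is reduced. Its membrane arm carries the proton pumps, which are encoded in mitochondrial DNA. Assembly factors build and join these modules and then leave the finished enzyme. NMT attaches the fatty acid myristate to an N-terminal glycine. Among the members, NDUFB7, a subunit of the distal membrane arm, and NDUFAF4, which helps to assemble the Q module, are known to carry this modification. The present data measure their mRNA and not their lipidation or protein. The 7 mitochondrially encoded subunits had 0 rows in the table and were not analysed here.

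Promoters of respiratory genes are known for binding sites of NRF1, ETS factors such as GABPA, YY1 and NFY. RefSeq start windows (GRCh38.p14, 250 bases before to 50 bases after each start) matched 39 of the 46 members with 51 windows. Each window was searched on both strands for the letters GCATGCG (NRF1), CCGGAAG (ETS), ATGGCGG (YY1) and CCAAT (NFY). The NRF1 letters overlap their own reverse complement, so a palindromic match reads on both strands. ATGGCGG was in 37.3% of the member windows, in 5.55% of all 35116 windows and in 8.77% of the 16242 windows of genes tested. It contains a start codon, ATG, and most of its matches in members lay after the start. Matches before the start were in NDUFA7, NDUFA13, NDUFAF7, NDUFS1 and NDUFS8 only. Shares for bases before the start alone were not taken. GCATGCG was in 15.7% of member windows, against 3.91% of all windows and 5.46% of those of genes tested. CCGGAAG was in 15.7%, against 10.3% and 16.1%, and CCAAT in 31.4%, against 34.6% and 34.2%. By gene, ATGGCGG was in 17 of 39 members and GCATGCG in 8, and each was in 2 of the 7 assembly factors with a window. NDUFA4, NDUFAF6, NDUFB5, NDUFB9, NDUFC2 and NDUFS5 were among those not matched.

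Shown here are stretches of 100 bases before a start of the members on which the comparisons below turn, read 5′ to 3′ along the gene's strand, with each match in capitals. NDUFAF4 and NDUFB7 are the myristoylated pair, NDUFA7 rose most in senescence, NDUFA5 fell in senescence and rose most with NMTi in senescent cells, NDUFA13 and NDUFAF8 fell most with NMTi in control cells, and NDUFS6 is a fallen subunit with an NRF1 match. NDUFAF4 lies at chr6:96897992-96898091 on the minus strand, from base 200 to base 101 before the start, and NDUFB7 at chr19:14572067-14572166 on the minus strand. NDUFA7 lies at chr19:8321476-8321575 and NDUFA5 at chr7:123557919-123558018, both on the minus strand and both from base 200 to base 101 before the start. NDUFA13 lies at chr19:19516125-19516224, NDUFAF8 at chr17:81239218-81239317 and NDUFS6 at chr5:1801307-1801406, all on the plus strand and, like NDUFB7, ending at the base before the start.
NDUFAF4: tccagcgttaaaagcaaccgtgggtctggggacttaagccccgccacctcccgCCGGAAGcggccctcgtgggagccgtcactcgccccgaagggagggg
NDUFB7: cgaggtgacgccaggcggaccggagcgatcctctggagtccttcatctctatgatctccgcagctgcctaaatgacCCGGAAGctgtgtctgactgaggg
NDUFA7: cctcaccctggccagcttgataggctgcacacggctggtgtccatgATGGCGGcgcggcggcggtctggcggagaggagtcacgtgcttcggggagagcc
NDUFA5: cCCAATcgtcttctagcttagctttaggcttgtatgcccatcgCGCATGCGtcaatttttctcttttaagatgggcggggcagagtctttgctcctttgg
NDUFA13: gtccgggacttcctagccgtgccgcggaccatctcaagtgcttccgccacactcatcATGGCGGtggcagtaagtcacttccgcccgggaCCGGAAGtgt
NDUFAF8: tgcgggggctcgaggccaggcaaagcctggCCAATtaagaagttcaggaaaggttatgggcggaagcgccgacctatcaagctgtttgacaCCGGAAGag
NDUFS6: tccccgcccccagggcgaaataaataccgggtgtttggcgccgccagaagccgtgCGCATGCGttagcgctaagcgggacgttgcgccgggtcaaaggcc
An ETS match stood in the stretches of both myristoylated members and of NDUFA13 and NDUFAF8. The YY1 letters stood in those of NDUFA7 and NDUFA13, and a palindromic NRF1 match in those of NDUFA5 and NDUFS6. NDUFA5 and NDUFAF8 also held a CCAAT.

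Libraries held between 16143716 and 23189950 counts, and members took between 39585 and 77366 of them. Levels are given as CPM, counts scaled to a common library size by the trimmed mean of M values (TMM). All 8 fibroblast markers were present, with summed levels of 24936 to 41618 CPM in control and 15042 to 22652 CPM in senescent libraries. The T-cell marker CD3E, the lung epithelial SFTPC, the muscle factor MYOD1 and the adipocyte ADIPOQ were at 0, and the pan-leukocyte PTPRC was at most 0.372 CPM. The summed level of the 5 immune markers, which was 15.99 to 25.9 CPM in control and 84.4 to 156 CPM in senescent libraries, moved with senescence through CD68, a lysosomal protein. That of the 4 endothelial markers was 1.26 to 4.34 CPM in control and 5.38 to 9.62 CPM in senescent libraries. The 5 epithelial markers summed to 51.8 to 116 CPM and 30.2 to 47.3 CPM, and the 4 muscle markers to 10.9 to 17.4 CPM and 0.149 to 0.547 CPM, in control and senescent libraries. The part of such shifts in the results was not tested. In bulk RNA, fewer cells of a type and less RNA per cell cannot be told apart.

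**Figure D1:**
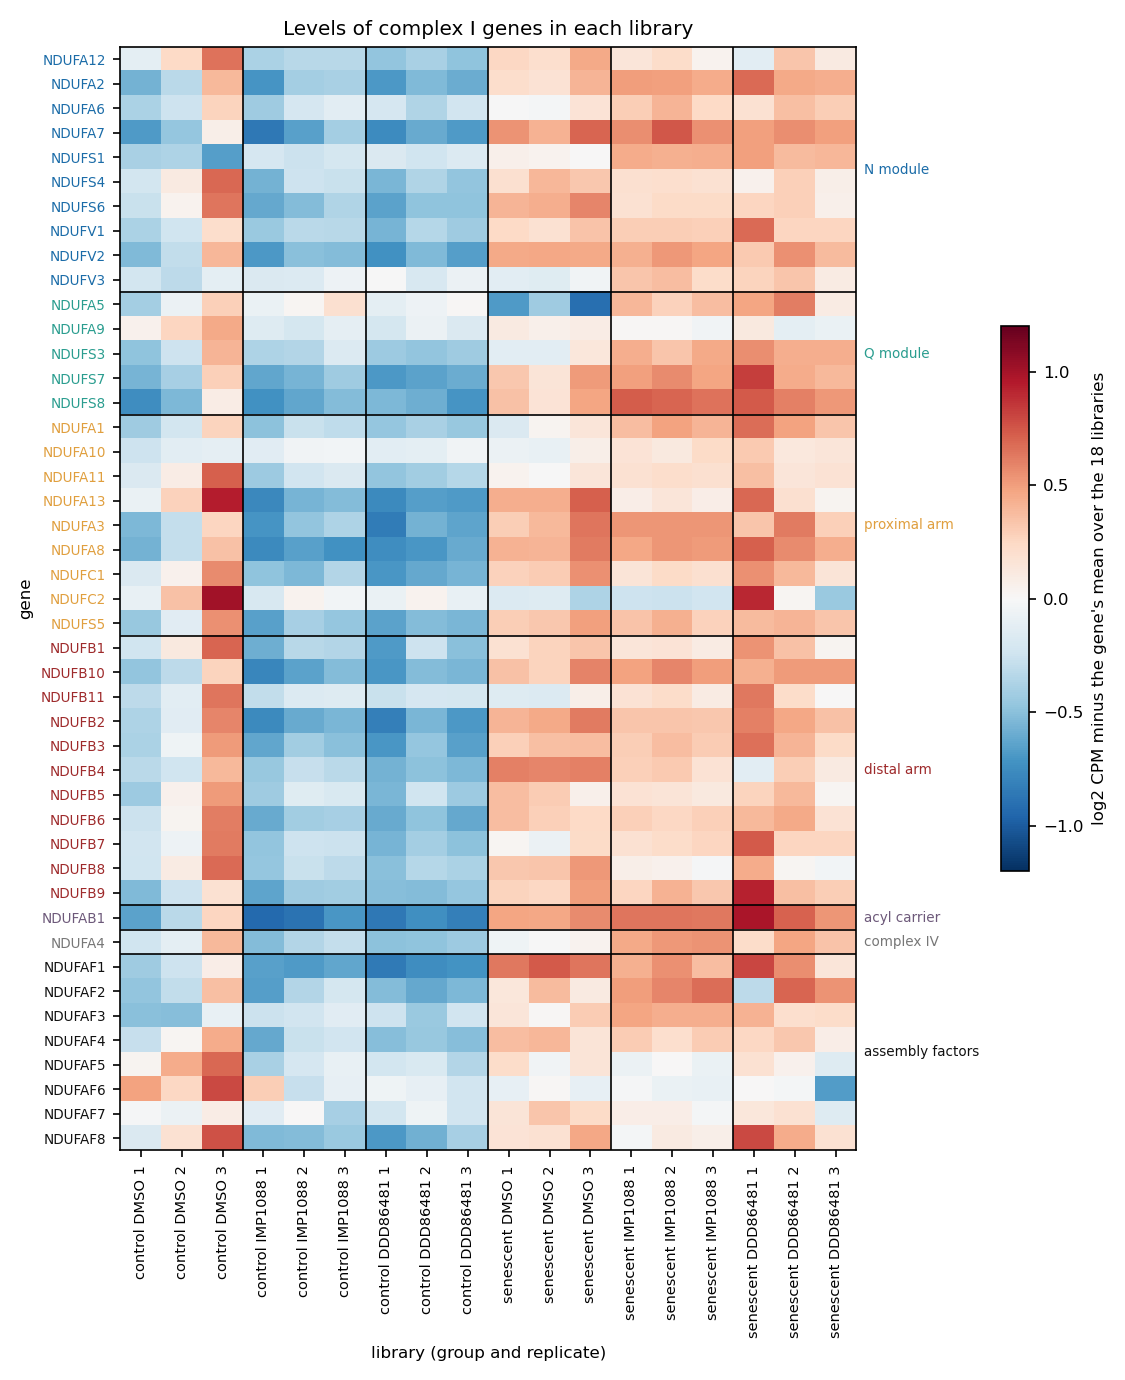
Heat map of 45 of the 46 members (rows, by module) in the 18 libraries (columns, by group and replicate), coloured by log2 CPM minus the gene's mean over all libraries (red higher, blue lower). Senescent libraries are redder for most members, control NMTi libraries bluer, and control DMSO replicate 3 is redder than the other control DMSO libraries for all but 1 of the members shown.

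A control library stood apart for these genes. Members took 0.248%, 0.291% and 0.406% of the counts of control DMSO replicates 1, 2 and 3, and control DMSO 3 was the highest of the 3 for 45 of 46 members. The exception was NDUFS1, with 125, 127 and 104 CPM. Member transcripts were short, with a median of 747.5 bases (691 for subunits and 1652 for assembly factors) against 3290 over the tested genes with a length, and 34 of 46 were among the 2743 shortest genes, of up to 1763 bases. Set against the mean of the other 2 control DMSO libraries, control DMSO 3 had a median log2 ratio of 0.40 over these 2743 genes, -0.40 over the 2737 longest genes and 0.67 over the members. Control DMSO 1 went the other way, with -0.32, 0.30 and -0.54, and so did control DMSO 2, with -0.14, 0.05 and -0.20. Both are set against a mean that includes control DMSO 3, which moves their ratios the opposite way. The correlation of the log2 ratio of control DMSO 3 with log length was -0.63 across 13691 genes and -0.75 across the 46 members, points that all come from the same libraries. Among the senescent libraries, DDD86481 1 was the highest of its group for 28 members, with a median log2 ratio of 0.19. For NDUFC2 it read 61.2 CPM, against 33.3 and 24 CPM in its replicates. Comparisons with control DMSO are therefore given with and without control DMSO 3 for all members, for both classes and for the members named.

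**Figure D2:**
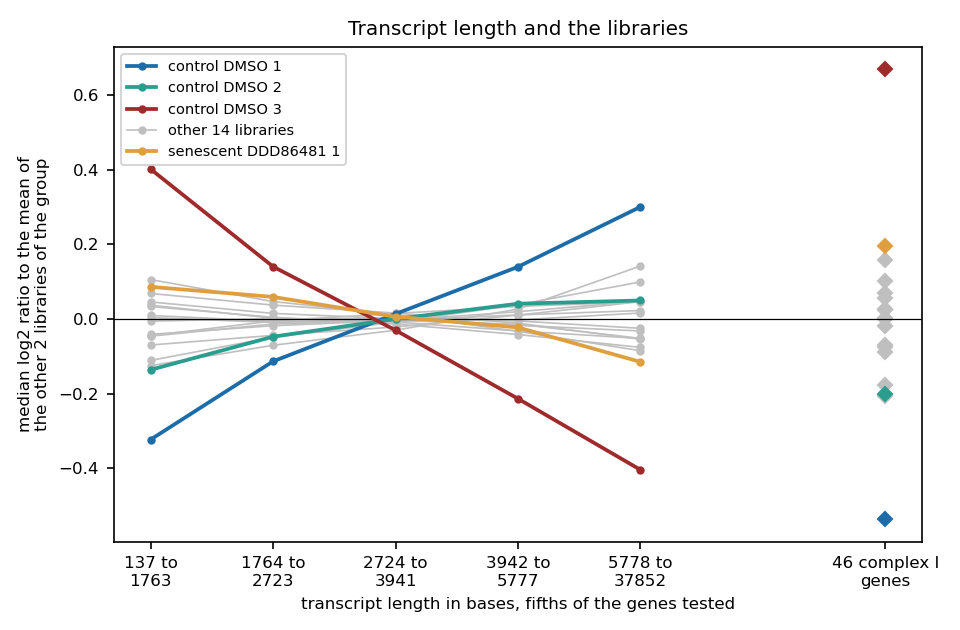
Median log2 ratio of each library to the mean of the other 2 libraries of its group (y axis), over 5 classes of tested genes from the shortest to the longest transcripts (x axis, lines) and over the 46 members (diamonds at the right). Control DMSO 3 runs from 0.40 in the shortest class to -0.40 in the longest and stands at 0.67 for the members. Control DMSO 1 and, less so, control DMSO 2 run the opposite way, each against a mean that includes control DMSO 3.

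Summed over the 37 complex I subunits, the level was 2633.5 ± 724 CPM in control DMSO (SD, n = 3), 2007.7 ± 129 CPM in control IMP1088 and 1937 ± 64.1 CPM in control DDD86481. In senescent cells the sums were 3187 ± 185 CPM with DMSO, 3314 ± 56.8 CPM with IMP1088 and 3433 ± 312 CPM with DDD86481. The 8 assembly factors summed to 171 ± 36.7, 138 ± 4.62 and 130 ± 3.07 CPM in the control groups and to 211 ± 5.96, 216 ± 2.35 and 215 ± 21.1 CPM in the senescent groups, in the same order. The ratio of the subunit sum to the assembly factor sum stayed between 13.9 and 16.4 over the 18 libraries. The means of both control NMTi groups lay below those of the senescent groups in both sums, with control DMSO between them and the most widely spread. Scaled by library totals alone, the subunit sums were 2806 ± 744 CPM in control DMSO and 2859 ± 149 CPM in senescent DMSO and the assembly factor sums 183 ± 37.3 and 189 ± 4.62 CPM, so the gap between control and senescent DMSO nearly closed. Per kilobase of transcript, NDUFS5, a small subunit of the membrane arm, had the highest level, at 424 CPM per kb, and also the highest mean CPM. NDUFAF5, a hydroxylase of the Q module subunit NDUFS7, had the lowest level per length, at 1.63 CPM per kb. The lowest mean level, 7.57 CPM, was that of NDUFAF6, an early assembly factor.

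Which complex I genes changed in senescence was asked by comparing senescent DMSO with control DMSO. By edgeR's quasi-likelihood test with Benjamini-Hochberg adjustment over all genes tested, 20 of 46 members were called, 17 higher and 3 lower. Of all 14341 genes tested, 68.5% were called, 32.5% higher and 36% lower, so fewer members than genes at large were called and the share that rose was near the background. The groups did not overlap for 18 members, 15 higher and 3 lower, against 67.6% of all genes (32.4% higher and 35.2% lower). The median log2 fold change was 0.21 over the members and -0.05 over all genes. Without control DMSO 3, 32 members rose and 2 fell, at a median of 0.43, against 69.2% of all genes called (33.5% higher and 35.6% lower). All 17 rises were among those 32. Every senescent DMSO library was above control DMSO 1 and 2 for 36 of 46 members and for 38.2% of all genes. Control DMSO 3 stood out as the highest control DMSO library for 45 of 46 members. Leaving it out therefore raised their fold changes through the choice of library, which was not made by the values of all genes. The counts without control DMSO 3 are thus no separate support for a rise. With upper-quartile scaling, which moved the median of all genes to -0.21, 12 rose and 6 fell, against 26.5% and 42.9% of all genes.

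NDUFA7, an accessory subunit of the matrix arm, rose most. It read 18.4, 21.4 and 31.0 CPM in control DMSO and 42.8, 39.4 and 47.8 CPM in senescent DMSO, so the groups did not overlap. Its log2 fold change was 0.88 ± 0.15 (SE, adjusted p = 2.5e-05, edgeR), or 1.12 without control DMSO 3. NDUFAF1, which helps to assemble the membrane arm, was the assembly factor that rose most. It went from 18.7, 21.3 and 26.6 CPM to 39.2, 41.9 and 39.4 CPM, again with no overlap and a log2 fold change of 0.86 ± 0.14 (adjusted p = 1.47e-05, edgeR). NDUFAB1 is the mitochondrial acyl carrier protein, which also serves fatty acid and iron-sulfur cluster synthesis. Its level was 55.3 ± 17.9 CPM in control DMSO and 89.1 ± 3.55 CPM in senescent DMSO (SD, n = 3), a log2 rise of 0.69. NDUFS8, a core iron-sulfur subunit of the Q module, rose by 0.69 on the same scale. NDUFAF3, the partner of NDUFAF4 in assembly of the Q module, rose from 43 ± 7.39 to 61.4 ± 6.24 CPM, by 0.52. Without control DMSO 3 the values were 1.00 for NDUFAF1, 0.97 for NDUFAB1, 0.97 for NDUFS8 and 0.66 for NDUFAF3. All of these calls held whichever of the 6 libraries compared was left out.

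The 3 members that fell were NDUFC2, NDUFA5 and NDUFAF6. NDUFA5, an accessory subunit of the Q module, read 31.2, 39.4 and 50.5 CPM in control DMSO and 25.9, 30.8 and 22.1 CPM in senescent DMSO. Every senescent value was lower than every control value, at a log2 fold change of -0.62 ± 0.16 (adjusted p = 0.00156, edgeR), and of -0.43 without control DMSO 3 (adjusted p = 0.0108, edgeR). NDUFAF6 read 10.4, 8.77 and 12.8 CPM and then 6.91, 7.47 and 6.92 CPM, which also did not overlap, at a log2 fold change of -0.58 (adjusted p = 0.0063, edgeR), or -0.43 without control DMSO 3 (adjusted p = 0.0356, edgeR). NDUFC2, of the membrane arm, read 30.8, 41.7 and 65.8 CPM in control DMSO against 29.1, 29.3 and 25.4 CPM. Its fold change of -0.72 (adjusted p = 0.0146, edgeR) became -0.38 without control DMSO 3, which was not past the threshold (adjusted p = 0.136, edgeR).

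By module, 5 of 10 N module subunits, of which NDUFA7 is 1, rose and 0 fell. Of the 6 Q module subunits 3 rose and 1 fell, of the 9 proximal membrane arm subunits 2 rose and 1 fell, and of the 11 distal membrane arm subunits 4 rose and 0 fell, with 0 falls in the N and distal lists at an unadjusted p under 0.05 and by DESeq2 too. With control DMSO 3 left out, 8 N module, 4 Q module, 6 proximal arm and 9 distal arm subunits rose. Of the 7 core subunits, which carry out the catalysis, 6 rose, at a median log2 fold change of 0.52, and 7 without control DMSO 3, at 0.76. Assembly factors stood close to subunits. Of 8 assembly factors 2 rose and 1 fell, at a median of 0.23, and of 37 subunits 15 rose and 2 fell, at a median of 0.20. Leaving out control DMSO 3, 4 assembly factors rose and 1 fell, at a median of 0.35, and 28 subunits rose and 1 fell, at 0.44. Of all genes, 32.5% rose and 36% fell, or 33.5% and 35.6% without control DMSO 3. In the full fit the share of rises was near that of all genes in the distal arm. It was below that of all genes in the proximal arm and among assembly factors. The difference between modules was not tested.

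**Figure D3:**
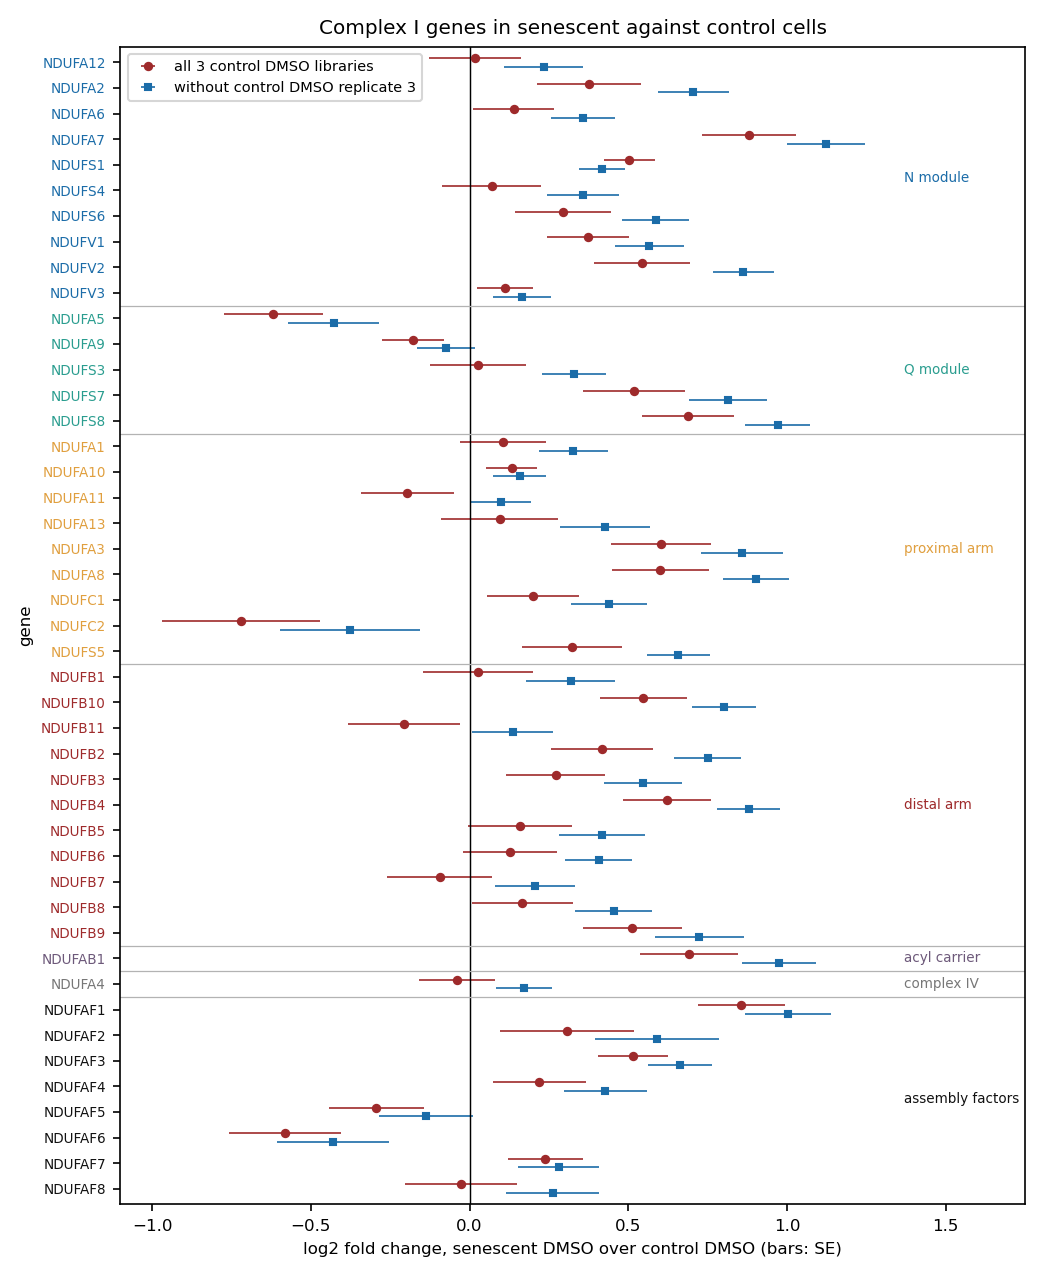
Log2 fold change of 45 of the 46 members, senescent DMSO over control DMSO (x axis, bars are SE), with all 3 control DMSO libraries (red circles) and without replicate 3 (blue squares), grouped by module. NDUFA7 and NDUFAF1 lie furthest right, at 0.88 and 0.86 with all libraries, NDUFC2, NDUFA5 and NDUFAF6 lie furthest left, and for every member shown but NDUFS1 the square lies to the right of the circle.

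Control and senescent cells could also be set side by side under NMTi, where no control DMSO library enters. All 6 senescent NMTi libraries were above all 6 control NMTi libraries for 39 of 46 members and below them for 0 of 46. Over all genes tested, 33.6% were higher and 34.4% lower in this way. NDUFA7, for example, ran from 16.3 to 22.3 CPM in the control NMTi libraries and from 41.5 to 49.5 CPM in the senescent ones. Over the 2743 shortest genes, the median log2 fold change was -0.02 for senescent over control DMSO. Over these genes, the NMTi effect in senescent less that in control cells had medians of 0.33 (IMP1088) and 0.37 (DDD86481). How many of these short genes stood apart under NMTi was not counted, so the 39 members lack a background of like length.

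In senescent cells, a minority of complex I genes changed with NMTi. With IMP1088, 8 of 46 members were called, all higher, against 44.4% of all genes (20.6% higher and 23.9% lower). The groups did not overlap for 15 higher and 11 lower members, against 61% of all genes (28.1% and 32.9%). The count of falls was 0 by edgeR, 3 at an unadjusted p under 0.05 and 1 by DESeq2. With scaling by relative log expression 7 rose and 1 fell (20.1% and 24.6% of all genes). With offsets fitted to transcript length 8 rose and 11 fell (22.3% and 27.4% of all genes), and in a fit of the compared groups alone 17 rose and 4 fell (29.8% and 30% of all genes).

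With DDD86481, 8 of 46 members were called, 7 higher and 1 lower, against 43.2% of all genes (20.1% higher and 23.1% lower). The groups did not overlap for 11 higher and 2 lower members, against 52.6% of all genes (24% and 28.7%). With the length offsets 9 rose and 6 fell (22.1% and 26.4% of all genes), and in the fit of the compared groups alone 13 rose and 1 fell (23.6% and 22.9% of all genes). The median log2 fold change was 0.01 with IMP1088 and 0.08 with DDD86481, beside -0.04 and -0.04 over all genes. Both comparisons use the same senescent DMSO libraries.

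NDUFA5 changed most, in the direction opposite to its change in senescence. It read 54.7, 50.2 and 53.8 CPM with IMP1088 and 57.7, 63.5 and 44.3 CPM with DDD86481, against the 22.1 to 30.8 CPM of senescent DMSO. Neither group overlapped with DMSO, at log2 fold changes of 1.01 ± 0.16 (adjusted p = 2.76e-05, edgeR) and 1.07 ± 0.16 (adjusted p = 1.52e-05, edgeR). NDUFS1, the largest core subunit and an iron-sulfur protein of the N module, read 171, 169 and 165 CPM with DMSO, 223, 221 and 222 CPM with IMP1088 and 231, 213 and 216 CPM with DDD86481. Its replicates were tight and the groups did not overlap. The log2 fold changes were 0.40 (adjusted p = 0.0004, edgeR) and 0.39 (adjusted p = 0.000579, edgeR).

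NDUFS3, a core subunit of the Q module, averaged 59 ± 6.38 CPM with DMSO, 80.1 ± 3.53 CPM with IMP1088 and 83.8 ± 4.16 CPM with DDD86481. It rose by 0.44 (adjusted p = 0.0224, edgeR) and 0.51 on the log2 scale (adjusted p = 0.0102, edgeR), and with IMP1088 it was past the threshold in only 2 of the 6 fits without 1 library. NDUFV3, an accessory subunit of the N module, rose by 0.41 with IMP1088 (adjusted p = 0.000725, edgeR). With DDD86481, NDUFA1, a small subunit needed for membrane arm assembly, rose by 0.49 (adjusted p = 0.00582, edgeR), from 55.6 ± 5.96 to 78.3 ± 9.17 CPM. It also rose with IMP1088, by 0.41 (adjusted p = 0.0178, edgeR), past the threshold in 4 of the 6 fits without 1 library. NDUFB4, of the distal membrane arm, was the member that fell with DDD86481, from 116, 114 and 116 CPM to 69.7, 93.4 and 82.0 CPM, with a log2 fold change of -0.50 (adjusted p = 0.00626, edgeR). Its 3 treated values were spread widely but all lay under the DMSO values. With IMP1088 it read 93.0, 95.0 and 85.9 CPM (log2 fold change -0.34, adjusted p = 0.0522, edgeR).

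Of the assembly factors in senescent cells, NDUFAF3 alone was called, with IMP1088, at 61.4 ± 6.24 CPM with DMSO and 75.0 ± 0.981 CPM with IMP1088 (log2 fold change 0.29, adjusted p = 0.04, edgeR). It was past the threshold in only 1 of the 6 fits without 1 library. With DDD86481 none of the 8 was called by edgeR or by DESeq2, nor at an unadjusted p under 0.05. The medians over assembly factors were -0.10 with IMP1088 and -0.09 with DDD86481, and over subunits 0.02 and 0.09.

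In control cells the direction was downward. With IMP1088, 26 of 46 members were called, 25 lower and 1 higher, against 33.7% of all genes (17.4% lower and 16.3% higher). With DDD86481, 30 were called, 29 lower and 1 higher, against 36.6% of all genes (18.7% lower and 17.8% higher). The groups did not overlap for 21 lower and 1 higher members with IMP1088, against 41.4% of all genes (21.3% and 20.1%), and for 27 lower and 1 higher with DDD86481, against 43.4% (22% and 21.4%). Median log2 fold changes over the members were -0.44 and -0.52, beside -0.00 and 0.00 over all genes, and -0.22 and -0.27 over the 2743 shortest genes. Leaving out control DMSO 3 gave 11 lower and 1 higher with IMP1088, against 28.1% of all genes (14.6% and 13.5%), and 21 lower and 0 higher with DDD86481, against 28.4% (14.5% and 14%), and the medians were -0.20 and -0.26. No median over the shortest genes was taken in that fit, so these 2 medians lack a background of like length. All 11 and all 21 were among the members that fell with control DMSO 3 included. In a fit of the compared groups alone 6 fell with IMP1088 and 13 with DDD86481, and 0 rose with either, against 10.9% lower and 9.08% higher of all genes with IMP1088 and 11.6% and 9.37% with DDD86481, so the count of falls with IMP1088 was near the background in that fit. With the length offsets 17 fell and 1 rose with each inhibitor, against 19.9% and 17.7% of all genes with IMP1088 and 19.9% and 18% with DDD86481. Both comparisons use the same control DMSO libraries. Control DMSO 1 and 2 were above all 6 control NMTi libraries for 20 of 46 members and for 22% of all genes.

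NDUFA13, a membrane arm subunit also known as GRIM-19, fell most. It read 109, 141 and 223 CPM with DMSO, 67.6, 78.9 and 80.5 CPM with IMP1088 and 68.4, 73.4 and 72.4 CPM with DDD86481, with no overlap. The log2 fold changes were -1.06 ± 0.19 (adjusted p = 0.000218, edgeR) and -1.14 ± 0.19 (adjusted p = 0.000101, edgeR). Without control DMSO 3 they were -0.72 and -0.81, still past the threshold (adjusted p = 0.000442 and 0.000143, edgeR). NDUFAF8, a partner of the hydroxylase NDUFAF5, was the assembly factor that fell most. It read 24.2, 31.1 and 46.3 CPM with DMSO, 19.0, 19.0 and 20.1 CPM with IMP1088 and 16.9, 18.3 and 20.7 CPM with DDD86481. The log2 fold changes were -0.80 and -0.86, and -0.51 and -0.57 without control DMSO 3, all past the threshold. NDUFAF5 itself fell from 11.6 ± 2.58 CPM to 7.48 ± 0.772 and 7.34 ± 0.452 CPM, with log2 changes of -0.63 (adjusted p = 0.00295, edgeR) and -0.66 (adjusted p = 0.00206, edgeR), or -0.47 and -0.51 without control DMSO 3, both past the threshold.

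NDUFB2, of the distal arm, went from 55.7 ± 20.4 CPM to 33.8 ± 2.61 CPM with IMP1088 and 32.8 ± 3.03 CPM with DDD86481. Its log2 fold changes of -0.72 and -0.76 became -0.39 and -0.43 without control DMSO 3, still past the threshold. NDUFS6, a zinc-binding subunit that joins the N module late in assembly, fell by 0.68 on the log2 scale with IMP1088 (adjusted p = 0.00186, edgeR), and by 0.39 without control DMSO 3 (adjusted p = 0.00769, edgeR). NDUFB1, of the distal arm, fell by 0.65, but by 0.36 and not past the threshold without control DMSO 3 (adjusted p = 0.0578, edgeR). With DDD86481, NDUFC1, of the proximal membrane arm, averaged 18.2 ± 0.857 CPM against 31.9 ± 8.79 CPM with DMSO, and NDUFB6, of the distal arm, 25.9 ± 1.35 against 43.4 ± 13.9 CPM. Their log2 fold changes were -0.80 and -0.74, and -0.57 and -0.46 without control DMSO 3, where both stayed past the threshold. NDUFS1 was the member that rose in control cells, from 125, 127 and 104 CPM to 143, 138 and 141 CPM with IMP1088 and 145, 139 and 147 CPM with DDD86481. All treated values were higher, but the log2 fold changes of 0.25 and 0.28 became 0.16 and 0.19 without control DMSO 3 and were no longer called (adjusted p = 0.105 and 0.053, edgeR).

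Both classes held falls. With IMP1088, 19 of 37 subunits and 5 of 8 assembly factors fell, at medians of -0.42 and -0.46. With DDD86481, 23 of 37 and 5 of 8 fell, at medians of -0.51 and -0.58. When control DMSO 3 was left out, 9 subunits and 2 assembly factors fell with IMP1088 and 15 and 5 with DDD86481. The distal membrane arm had 7 of 11 falls with IMP1088 and 9 of 11 with DDD86481, and the Q module 2 of 6 with each. Leaving out control DMSO 3 gave 2, 6, 1 and 1. Of all genes, 17.4% fell with IMP1088 and 18.7% with DDD86481, or 14.6% and 14.5% without control DMSO 3. In the latter fit the distal arm with IMP1088 and the Q module with each were near that share. The difference between modules and between the classes was not tested.

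**Figure D4:**
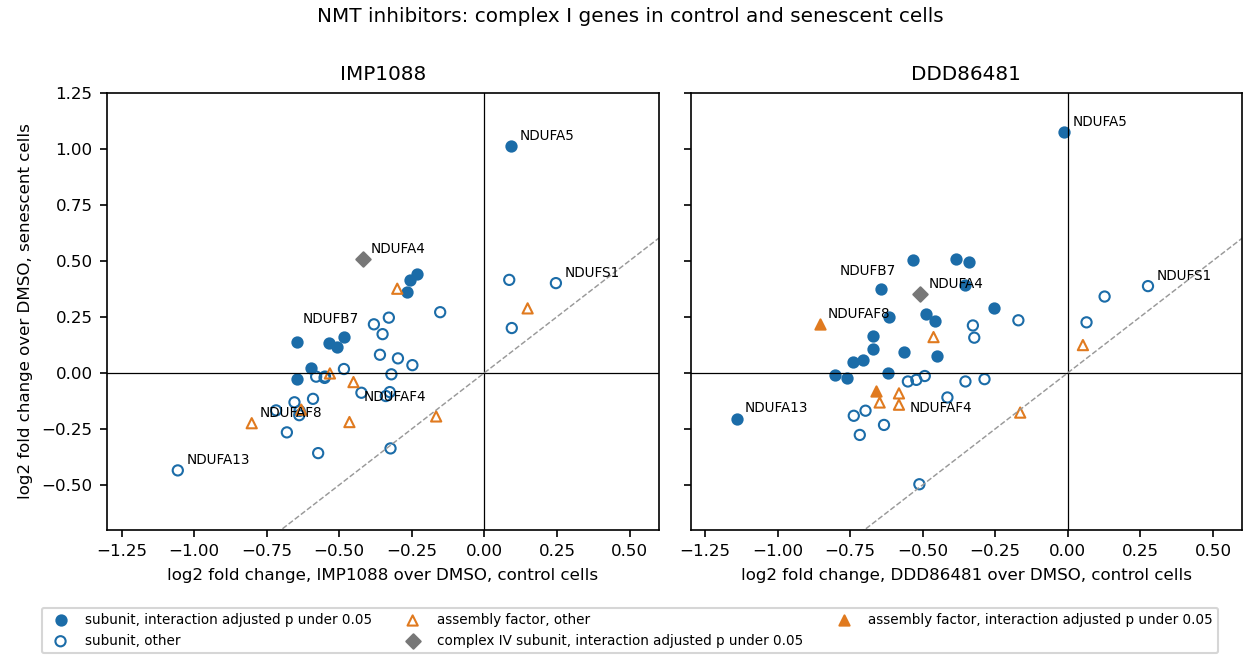
Each point is a member, with its log2 fold change by an NMT inhibitor over DMSO in control cells (x axis) and in senescent cells (y axis), for IMP1088 (left) and DDD86481 (right). Circles are complex I subunits, triangles are assembly factors and the grey diamond is NDUFA4, filled symbols have an interaction adjusted p under 0.05, and the dashed line marks equal change. Most points lie left of 0 and above the line, with NDUFA5 at the top and NDUFA13 at the far left.

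Whether NMTi acted differently in the 2 states was tested by the interaction, the effect in senescent cells less the effect in control cells, on the log2 scale. For IMP1088, 11 of 46 members were past the threshold, all with a positive difference, against 26.2% of all genes (12.1% positive and 14.2% negative). For DDD86481, 23 of 46 were, all positive, against 30.3% of all genes (14.4% and 15.9%). The count of negative differences was 0 for both by edgeR, by DESeq2 and at an unadjusted p under 0.05. The medians over the members were 0.51 and 0.55, beside -0.00 and -0.01 over all genes and 0.33 and 0.37 over the 2743 shortest genes. In the fit without control DMSO 3, 6 members were past the threshold for IMP1088, against 22.2% of all genes (9.89% positive and 12.3% negative), and 14 for DDD86481, against 25% (11.3% and 13.7%), all positive and all among the 11 and the 23. Their medians over the members were 0.23 and 0.33, with no median over the shortest genes taken in that fit. The count was 14 for DDD86481 without senescent DDD86481 1, against 24.5% of all genes, and 4 for IMP1088 without senescent DMSO 2, against 20.5% of all genes. With the length offsets 7 were positive and 1 negative for IMP1088 (12.7% and 14% of all genes), and 14 and 2 for DDD86481 (14.6% and 15.2%).

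NDUFA5 had a difference of 0.92 (adjusted p = 0.00455, edgeR) for IMP1088 and of 1.09 (adjusted p = 0.00123, edgeR) for DDD86481, and 0.73 and 0.90 without control DMSO 3. In control cells it had read 39.2 to 47.5 CPM with IMP1088 and 38.2 to 41.8 CPM with DDD86481, within the 31.2 to 50.5 CPM of DMSO. NDUFAF8 had a difference of 1.07 for DDD86481 (adjusted p = 0.00392, edgeR), beside senescent levels of 30.6, 31.0 and 37.7 CPM with DMSO and 47.2, 37.2 and 30.9 CPM with DDD86481. It was 0.78 without control DMSO 3 and 0.90 without senescent DDD86481 1, both past the threshold. Among assembly factors, none passed for IMP1088 by edgeR or DESeq2, with 4 of 8 at an unadjusted p under 0.05, and 2 of 8 passed for DDD86481. Among subunits 10 and 20 of 37 passed. In the fit without control DMSO 3, 0 and 1 assembly factors and 5 and 12 subunits did. Of all genes 26.2% and 30.3% passed, or 22.2% and 25% without control DMSO 3.

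Neither myristoylated member was past the threshold in senescence. NDUFAF4 read 13.3, 16.3 and 21.8 CPM in control DMSO and 20.7, 21.1 and 17.9 CPM in senescent DMSO. The groups overlapped through control DMSO 3, and the log2 fold change was 0.22 ± 0.15 (adjusted p = 0.189, edgeR), or 0.43 without that library (adjusted p = 0.00616, edgeR). NDUFB7 read 52.5, 58.9 and 94.7 CPM in control DMSO and 62.5, 58.4 and 71.8 CPM in senescent DMSO. These groups overlapped too, at -0.09 (adjusted p = 0.626, edgeR), and the sign turned without control DMSO 3, to 0.21 (adjusted p = 0.147, edgeR).

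In control cells NDUFAF4 read 10.5, 13.3 and 13.6 CPM with IMP1088 and 11.3, 11.7 and 11.3 CPM with DDD86481. The IMP1088 values overlapped with those of DMSO at 13.3 CPM, and the DDD86481 values did not. Its log2 fold changes were -0.45 (adjusted p = 0.0238, edgeR) and -0.58 (adjusted p = 0.00497, edgeR), and -0.24 and -0.37 without control DMSO 3, where only the second remained past the threshold (adjusted p = 0.182 and 0.0377, edgeR). NDUFB7 read 44.1, 51.6 and 51.4 CPM and 41.6, 46.3 and 43.8 CPM. All 6 values lay below the control DMSO values, at -0.48 (adjusted p = 0.0299, edgeR) and -0.64 (adjusted p = 0.00532, edgeR), and at -0.18 and -0.34 without control DMSO 3, where again only the second remained called (adjusted p = 0.297 and 0.0428, edgeR).

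In senescent cells NDUFAF4 read 19.7, 18.4 and 19.8 CPM with IMP1088 and 19.0, 20 and 16.9 CPM with DDD86481, within or beside the range of DMSO. The log2 fold changes were -0.04 ± 0.15 (adjusted p = 0.846, edgeR) and -0.09 ± 0.15 (adjusted p = 0.644, edgeR). NDUFB7 read 69.8, 71.8 and 73.7 CPM with IMP1088 and 103, 73.3 and 73.6 CPM with DDD86481. On the log2 scale it differed from DMSO by 0.16 (adjusted p = 0.465, edgeR) and 0.37 (adjusted p = 0.0765, edgeR), the latter 0.19 without the DDD86481 library at 103 CPM. Its interaction was 0.64 for IMP1088 (adjusted p = 0.0487, edgeR) and 1.02 for DDD86481 (adjusted p = 0.00348, edgeR). In the fit without control DMSO 3 the first was 0.34 and no longer called (adjusted p = 0.153, edgeR) and the second 0.72 (adjusted p = 0.00327, edgeR). The interaction of NDUFAF4, 0.41 and 0.49, was not past the threshold (adjusted p = 0.151 and 0.0814, edgeR).

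**Figure D5:**
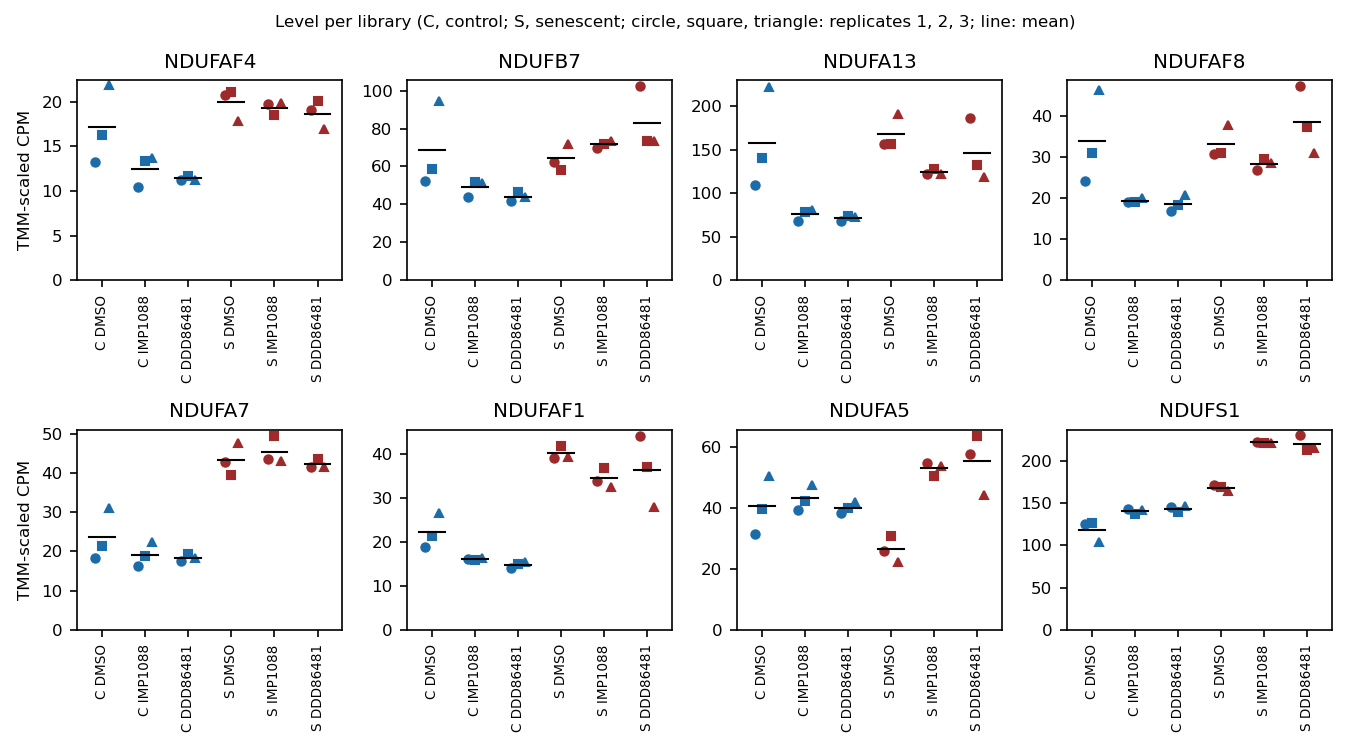
CPM (y axis, from 0) of 8 members in each library by group (x axis, C for control in blue and S for senescent in red; circle, square and triangle are replicates 1, 2 and 3; lines are means). Control DMSO 3 (blue triangle) is the highest control library for 7 of the 8 and the lowest for NDUFS1, and NDUFA5 is lowest in senescent DMSO.

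NDUFA4 was first described as a complex I subunit and belongs to complex IV, cytochrome c oxidase. It read 125, 136 and 193 CPM in control DMSO, 103, 116 and 121 CPM in control IMP1088 and 105, 105 and 109 CPM in control DDD86481. In senescent cells it read 142, 147 and 152 CPM with DMSO, 201, 212 and 214 CPM with IMP1088 and 172, 204 and 186 CPM with DDD86481. Every senescent NMTi value lay above those of senescent DMSO, and every control NMTi value below those of control DMSO. The log2 fold change with IMP1088 was 0.51 (adjusted p = 0.00167, edgeR) in senescent and -0.42 (adjusted p = 0.0103, edgeR) in control cells, while the interaction was 0.93 (adjusted p = 0.000546, edgeR), or 0.71 without control DMSO 3. With DDD86481 the values were 0.35 (adjusted p = 0.0221, edgeR) and -0.51 (adjusted p = 0.00252, edgeR), the latter -0.30 without control DMSO 3 and still called. The fall with IMP1088 was -0.21 without control DMSO 3 and no longer called (adjusted p = 0.0778, edgeR), and the rise with DDD86481 was past the threshold in 3 of the 6 fits without 1 library.

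Other complex I assembly factors, a list of 12 genes outside the NDUFAF series, had 2 rises and 1 fall in senescence, or 5 and 1 without control DMSO 3, against the 32.5% and 36% of all genes given above. The fall was TMEM126A, which acts in membrane arm assembly, from 18.3, 19.2 and 25.6 CPM to 7.53, 10.1 and 8.63 CPM (log2 fold change -1.26, adjusted p = 2.89e-07, edgeR, or -1.10 without control DMSO 3). With IMP1088 and DDD86481 in senescent cells, 4 and 5 of the 12 rose and 1 and 1 fell, against rises in 20.6% and 20.1% and falls in 23.9% and 23.1% of all genes. FOXRED1, a flavoprotein needed for complex I assembly, rose most. It read 14.5, 12.8 and 15.9 CPM in senescent DMSO, 44.2, 44.6 and 44.2 CPM with IMP1088 and 43.1, 38.0 and 38.3 CPM with DDD86481, log2 fold changes of 1.62 and 1.46. In control cells it also rose with both, by 0.82 and 0.68, to values of 20.4 to 29.2 CPM from 14 to 14.9 CPM, and control DMSO 3, at 14.9 CPM, was close to its replicates. The interaction of FOXRED1 with IMP1088 was 0.80 (adjusted p = 0.00111, edgeR). TMEM70, which acts in assembly of complex I and ATP synthase, rose by 0.65 and 0.80 in senescent cells.

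Some members share exonic bases with a neighbour, and it is uncertain whether their reads were told apart. The study's methods name a library kit that marks strand and a stranded alignment, but the strand setting of the counting was not given in the sources used here. On a GRCh37 annotation the shares of at least 10% among the members named with values were 32.5% for NDUFA7, 27.9% for NDUFB2 (with BRAF), 18.6% for NDUFC2 (with NDUFC2-KCTD14), 16.1% for NDUFA13, 19.5% for NDUFC1 (with NAA15), 16% for NDUFS3 (with PTPMT1), 14.4% for NDUFAF3 (with DALRD3) and 11.6% for NDUFS1. The neighbours of NDUFA7, NDUFC2, NDUFA13 and NDUFS3 in this list lie on the same strand, where no strand setting separates reads. Those of NDUFB2, NDUFC1, NDUFAF3 and NDUFS1 lie on the opposite strand.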

How the data were processed

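Poly(A) RNA of 18 libraries, 3 in each of 6 groups named by the labels, was measured by RNA-seq. The values deposited by the authors were raw counts of reads, in 1 table with a row per symbol. The study's methods name TopHat, hg19 and Ensembl annotation, while the submitters' processing notes list hg38, DRAGEN, STAR 2.7.8a and DESeq2 1.32.0, so the build behind the counts is uncertain. No coordinates were taken from the table, and promoter windows came from RefSeq.

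Of 28266 genes, 6836 held no count. The filter filterByExpr kept 14341. TMM scaling was followed by edgeR's quasi-likelihood test (edgeR 4.0.16 in R 4.3.3) in 1 fit of 18 libraries, with 5 comparisons of groups and 2 interactions. P-values had Benjamini-Hochberg adjustment over all genes tested, with a threshold of 0.05. SE was the absolute log2 fold change over the square root of F. Alternatives were DESeq2 1.42.0, other scalings, no filter, the compared groups only, a replicate block, leaving out each library and, chosen after seeing the data, leaving out control DMSO 3 together with senescent DDD86481 1 and offsets fitted to transcript length (GENCODE, GRCh37, a length for 95.5% of genes tested). The test was checked on simulated counts. The lowest chi-square per gene between replicates was 5.26, so none was a duplicate. Same-numbered libraries deviated together for control DMSO with control IMP1088 (r = 0.394, 0.123 and 0.231), from the correlations alone. So did those of IMP1088 with DDD86481, in control cells (0.101, 0.270 and 0.129) and in senescent cells (0.117, 0.126 and 0.119). In the other comparisons of groups the lowest of the 3 correlations was 0.051 or less. The labels do not say whether replicates were separate cultures. The study's legend for expression under these inhibitors gives n = 3 and counts n as independent experiments. P-values measure the spread between these libraries.

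The members and lists were chosen with earlier results of these data known. NDUFAF4 and NDUFB7 were named throughout. In each comparison of groups, the 4 subunits and the 2 assembly factors with the largest rise, and as many with the largest fall, were named among members past the threshold. In each interaction the 2 members with the largest difference of each sign were named, and so were the members with the highest and lowest level. NDUFA4 was described apart. The values of 1 subunit that this rule names, and of 1 marker, are not reported here. Values of NDUFA1, NDUFA4, NDUFA5, NDUFA7, NDUFB4, NDUFC2 and NDUFS1 outside the comparisons that named them were added after they were seen. Of the other lists, up to 2 genes with the largest absolute change per comparison were named.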

Additional observations from a re-analysis of the deposited data

Results flagged for a closer look

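The interaction term tested whether the effect of an NMT inhibitor differed between senescent and control cells, and it was past the threshold for some members. For IMP1088 this held for 11 of 46 members, among them NDUFA4 at 0.93, NDUFA5 at 0.92 and NDUFB7 at 0.64 on the log2 scale (edgeR). All 11 were positive, and over all genes 26.2% passed (12.1% positive and 14.2% negative). In the fit without control DMSO 3 the count was 6, against 22.2% of all genes (9.89% positive), and these values were 0.71, 0.73 and 0.34, the last not past the threshold. NDUFB7 was at 0.16 with offsets fitted to transcript length (adjusted p = 0.385, edgeR). For DDD86481 it held for 23 of 46 members, among them NDUFA5 at 1.09, NDUFAF8 at 1.07 and NDUFB7 at 1.02 (edgeR), against 30.3% of all genes (14.4% positive). Leaving out control DMSO 3 gave 14 members, against 25% of all genes (11.3% positive), and values of 0.90, 0.78 and 0.72, all past the threshold. Both tests use the same DMSO libraries. The deviation of control DMSO 3 with transcript length moved with these values, and its part in them was not tested.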

How the results depend on the processing

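Of the values of named members, 700 kept their direction and their side of the threshold under the alternatives, 49 were no longer past it, 8 newly passed it and 5 changed sign. Of the counts and medians, 289 held and 53 moved. The cause of these moves was not tested.

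Without control DMSO 3 and senescent DDD86481 1 the counts of changed members were 35 for senescence, 17 and 14 for IMP1088 and DDD86481 in senescent cells and 12 for the DDD86481 interaction. Of all 14471 genes tested in that fit, 10269, 7517, 6553 and 3315 were called in these comparisons. The interaction medians were 0.23 (subunits) and 0.24 (assembly factors) for IMP1088 and 0.28 and 0.26 for DDD86481. With the compared groups alone, the counts were 21 and 14 in senescent and 6 and 13 in control cells (all-gene shares above). With the length offsets they were 19 and 15 in senescent cells and 18 for IMP1088 and 18 for DDD86481 in control cells (shares above). The subunit median was then -0.074 for IMP1088 in senescent cells and -0.19 for DDD86481 in control cells, and the interaction medians 0.095 and 0.16 for IMP1088 and 0.18 and 0.20 for DDD86481. With no filter, 21 members passed the IMP1088 interaction, against 3950 of all 21430 genes. Scaled by library totals alone, the subunit sums were 2806 CPM in control DMSO, 2184 and 2101 CPM in control IMP1088 and DDD86481 and 2859 and 3129 CPM in senescent DMSO and IMP1088, and the assembly factor sums 183, 150.5, 141, 189 and 203.6 CPM.

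Leaving out 1 library at a time, the count ran from 16 (without control DMSO 2) to 34 (without control DMSO 3) for senescence, from 4 to 9 and from 6 to 10 for IMP1088 and DDD86481 in senescent cells, from 12 (without control DMSO 3) to 39 (without control DMSO 1) and from 21 to 40 in control cells, from 4 (without senescent DMSO 2) to 32 (without control DMSO 1) for the IMP1088 interaction and from 14 to 37 for that of DDD86481. Of all genes, 9271 of 14502 and 10027 of 14493 were called at these ends for senescence. In senescent cells they were 5520 of 14531 and 5617 of 14516, then 5282 of 14531 and 5812 of 14534. In control cells they were 4069 of 14493 and 5892 of 14513, then 4120 of 14493 and 6317 of 14513. For the interactions they were 2982 of 14522 and 5242 of 14513, then 3622 of 14493 and 5796 of 14513. Subunit medians ran from 0.09 to 0.44 for senescence, -0.0029 to 0.08 and 0.01 to 0.18 in senescent cells, -0.56 to -0.18 and -0.68 to -0.23 in control cells, and 0.23 to 0.68 and 0.33 to 0.71 for the interactions. Assembly factor medians ran from 0.11 to 0.35, -0.12 to -0.06, -0.13 to 0.03, -0.56 to -0.28, -0.68 to -0.40, 0.24 to 0.56 and 0.32 to 0.60 in the same order. NDUFB7 in senescence ran from -0.25 to 0.21 and was 0.21 without both libraries above, and NDUFAF4 with IMP1088 in senescent cells from -0.12 to 0.0027. NDUFS1 in control cells was -0.0047 with IMP1088 and -0.062 with DDD86481 under the length offsets.

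With a replicate block the counts were 21, 10, 8, 26, 31, 11 and 22 for the 7 comparisons in the same order, against 20, 8, 8, 26, 30, 11 and 23 without it. Of all 14341 genes tested, 9913, 6510, 6259, 5003, 5412, 3974 and 4555 were called with the block. Depth limits the rarest members, since 3 counts were worth 0.121 to 0.187 CPM in these libraries, and NDUFAF6 and NDUFAF5 lay at 4.66 to 14.1 CPM.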

Other observations

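Genes of the other respiratory complexes were also measured, and the complex II list held SDHAF assembly factors beside its subunits. In senescence, 6 of 8 complex II genes rose and 1 fell, with SDHA and SDHB, its catalytic subunits, at log2 fold changes of 0.90 and 0.88, or 0.97 and 1.13 without control DMSO 3. Over all genes 32.5% rose and 36% fell. For complex III 5 of 9 rose and 0 fell by edgeR, with 1 lower at an unadjusted p under 0.05 and 0 by DESeq2. They included CYC1, cytochrome c1, at 1.16, and UQCRC1, a core subunit, at 0.98, or 1.20 and 1.13 without control DMSO 3. Of 10 complex IV genes 5 rose and 1 fell, and of 17 ATP synthase genes 4 rose. Without control DMSO 3, 8 and 12 rose, against 33.5% of all genes. In control cells, 6 complex IV and 6 ATP synthase genes fell with IMP1088 and 7 and 10 with DDD86481, against 17.4% and 18.7% of all genes. Without control DMSO 3, 0 and 5 and then 4 and 5 fell, against 14.6% and 14.5% of all genes.

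Among 11 regulators of respiratory genes, PPARGC1B, a coactivator, read 0.967, 1.49 and 0.0995 CPM in control DMSO and 7.22, 8.59 and 10.0 CPM in senescent DMSO, a log2 fold change of 3.27, or 2.80 without control DMSO 3. Its value in control DMSO 3 lay under the 0.149 CPM that 3 counts were worth in that library. PPARGC1B read 2.63 to 3.35 CPM in senescent IMP1088 and 2.94 to 3.88 CPM in senescent DDD86481, below every senescent DMSO value. TFB2M, a mitochondrial transcription factor, rose with IMP1088 and with DDD86481 in senescent cells, by 1.35 and 1.36 on the log2 scale, from 17.9 to 18.3 CPM to 40.3 to 51.3 CPM. POLRMT, the mitochondrial RNA polymerase, rose by 1.38 in senescence.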
